A study of Mus musculus with 8 samples.

Results

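E proteins are basic helix-loop-helix transcription factors that pair through their helix-loop-helix region and bind E box sequences. Id proteins share that region but lack the basic stretch that touches DNA, so that a pair of an E protein and an Id protein does not bind. In the thymus, E proteins drive T cell receptor gene rearrangement and hold precursors at their checkpoints, and signals from the pre-T cell receptor raise Id genes and lower E protein activity. Here, H3K27ac, a histone mark of active promoters and enhancers, was examined at the E protein genes *Tcf3*, *Tcf12* and *Tcf4* and at the Id genes *Id1*, *Id2*, *Id3* and *Id4*. These 7 genes, named as the families' members, were taken from 18397 protein-coding genes with a known strand, and each was described over its gene body plus 20 kb on either side (its window).

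The study asked what the enhancer IkE120 does for *Ikzf1*, the gene of the zinc finger protein Ikaros, in developing T cells. ChIP-seq for H3K27ac was made from wild-type (wt) P5424 cells, a mouse line used as a model of T cell precursors, and from ΔIkE120 P5424 cells, a clone expanded by limiting dilution after CRISPR/Cas9 had removed IkE120 from both alleles. There was 1 library per genotype, so that no test, p-value or SD can be given, and genotype, clone and library cannot be told apart. Whether the ChIP-seq cells were stimulated is not given in the sources used here.

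The wt list held 34553 peaks over 25189952 bases and the ΔIkE120 list 29902 peaks over 22143580 bases, a ratio of covered bases of 0.879. Median peak length was 603 bp in wt and 628 bp in ΔIkE120. Each peak carries a fold enrichment and a -log10 q from the peak caller, and the latter had a median of 4.12 over the wt list and 4.47 over the ΔIkE120 list. The depth of the libraries is unknown, so -log10 q was ranked within a list and covered bases were read beside the shift of the whole lists.

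Marker genes were used to check the labelled cell type. A peak lay within 1 kb of the start of 10 of 10 T cell precursor marker genes in wt and of 9 of 10 in ΔIkE120, and the highest in wt were at the CD3 chain genes *Cd3e* (-log10 q of 24.0, and 15.8 in ΔIkE120), *Cd3g* (19.4 and 12.4) and *Cd3d* (12.2 and 8.97) and at the kinase gene *Lck* (10.0 and 12.2). The adhesion receptor gene *Cd2* had its start peak, with a -log10 q of 3.12, in the wt list only. Among other cell types, 1 of 6 B cell markers (*Ebf1*, 2.74 in wt and 2.28 in ΔIkE120), 1 of 5 myeloid markers (*Cd14*, 1.34 and 4.44), 1 of 4 fibroblast markers (*Pdgfrb*, 2.16 and 1.66) and 0 of 3 pluripotency markers had a start peak in either list. Over all protein-coding genes, a start peak was found for 45.9% in wt and 45.2% in ΔIkE120, so the T cell precursor markers lay above and the other marker lists below that share.

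Around the place of the deletion, the stretch from 110 to 130 kb upstream of the *Ikzf1* start held 6 wt peaks over 5332 bases and 5 ΔIkE120 peaks over 3205 bases. A wt peak of 1644 bp at chr11:11563705-11565348 was met in ΔIkE120 by a peak of 712 bp at chr11:11564652-11565363. The IkE120 interval, placed as in the study's methods, lay under this wt peak over its whole length and under no ΔIkE120 peak. The fold enrichment of this wt peak was 2.58, with a -log10 q of 9.83, and that of the ΔIkE120 peak was 3.74, with a -log10 q of 12.0. The length and place of these peaks thus ran in the direction that the genotype labels give, and their fold enrichment did not. The start of *Ikzf1* itself carried a peak in both lists, at 10.6 in the wt list (-log10 q) and 11.6 in the ΔIkE120 list. Covered bases within 1 kb of that start ran the other way, at 1145 in wt and 1060 in ΔIkE120.

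A peak within 1 kb of the start was present for 5 of the 7 E protein and Id genes in wt and for the same 5 in ΔIkE120. They were *Tcf3*, *Tcf12*, *Tcf4*, *Id1* and *Id2*, while *Id3* and *Id4* had none. Over all protein-coding genes, such a peak was found for 45.9% in wt and 45.2% in ΔIkE120. It was present in wt only for 1.11% of all genes and in ΔIkE120 only for 0.457%, and for 0 of the 7 members in either direction.

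The place of the acetylated stretch around the start differed between genes, also within each family. The start base was covered by a peak at *Tcf3* and *Tcf12* in both lists, as at 30.9% of all genes in wt and 30.4% in ΔIkE120. At *Id1* and *Id2* it fell in a gap between a pair of peaks in both lists, a state of 5.54% of all genes in wt and 5.23% in ΔIkE120. At *Tcf4* the peak lay inside the gene, on the downstream side only, and *Id3* and *Id4* had none near the start. These classes of starts were defined after the values were seen.

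**Figure D1:**
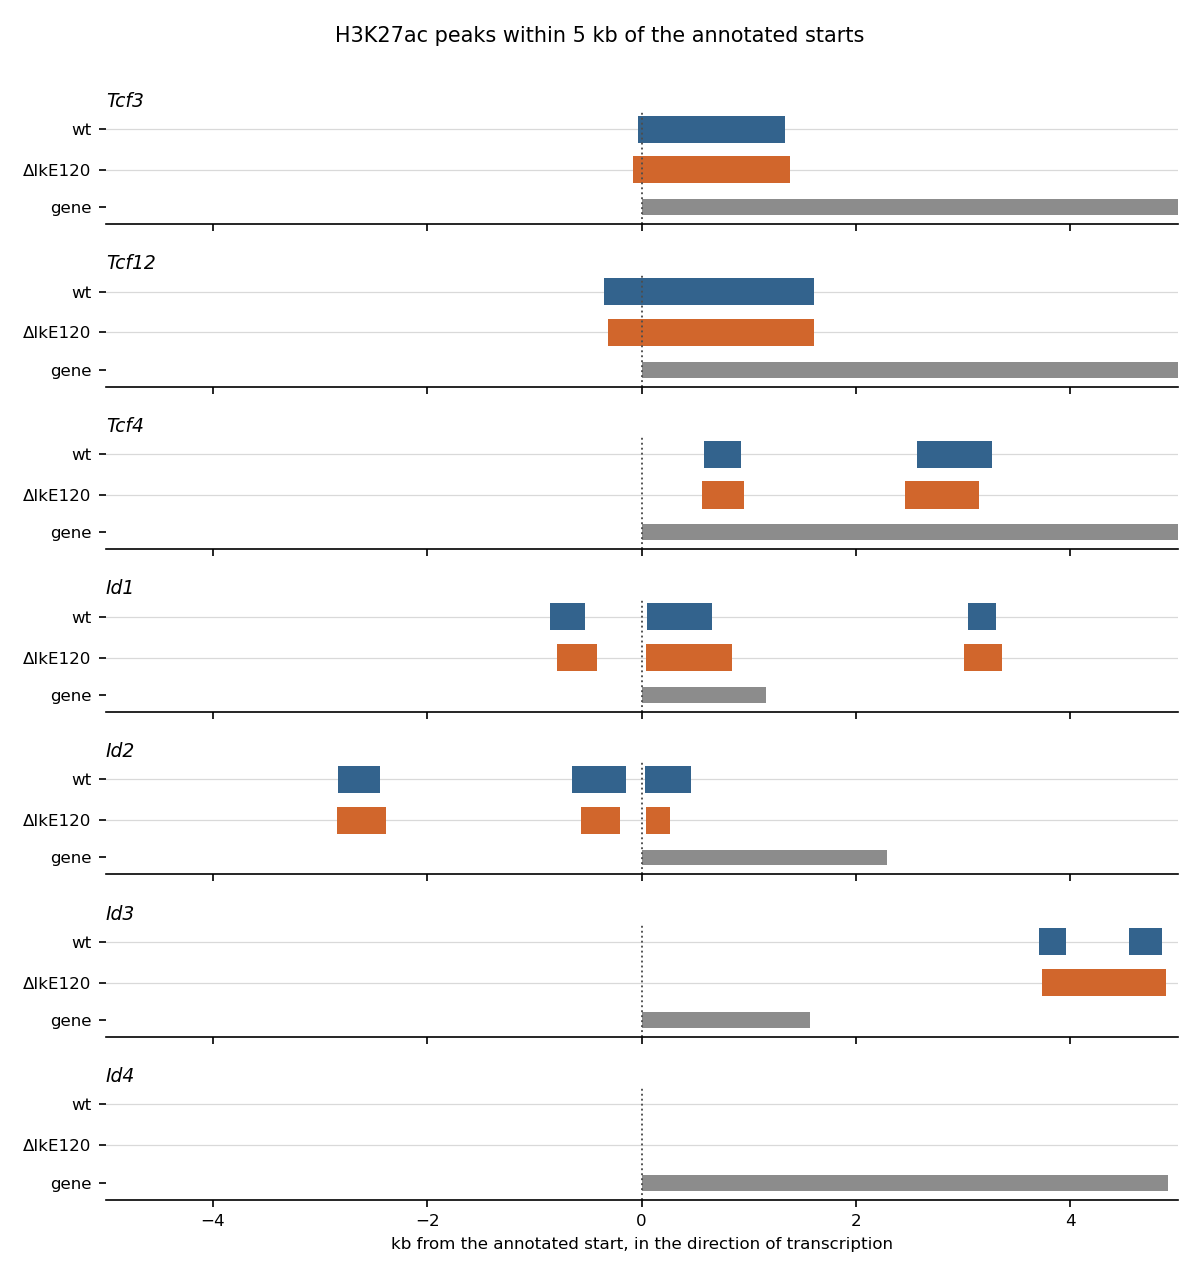
Peaks within 5 kb of the annotated start of each gene, in kb along the direction of transcription, with wt peaks in blue, ΔIkE120 peaks in orange and the gene body in grey. Blocks cover the start line at Tcf3 and Tcf12, flank it at Id1 and Id2, begin inside the gene at Tcf4, begin 3.71 kb (wt) or 3.73 kb (ΔIkE120) downstream at Id3 and are absent at Id4.

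*Tcf3*, the founding E protein gene and essential for B cell and early T cell development, lies on the minus strand at chr10:80409541-80433976 (GRCm38). Its start peak spanned chr10:80432640-80434008 (1369 bp) in wt, with a fold enrichment of 4.28 and a -log10 q of 23.4. In ΔIkE120 it spanned chr10:80432593-80434057 (1465 bp), with 4.17 and 20.5. Among genes with a start peak, 90.4% had a lower -log10 q in wt and 81.7% in ΔIkE120, so the *Tcf3* start stood in the upper part of both lists.

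The *Tcf3* window held 8 peaks over 5465 bases in wt and 6 peaks over 5806 bases in ΔIkE120, a ratio of 1.06. Peaks took up 8.48% of it in wt and 9.01% in ΔIkE120, more than in the windows of 94.3% and 96.2% of all genes, against medians of 1.87% and 1.67%. Of these peaks, 3 in each list lay at the starts of neighbours, with 2993 of the wt bases and 3261 of the ΔIkE120 bases, and without them the share was 3.84% and 3.95%. The window holds the start of *Mbd3*, a subunit gene of the NuRD chromatin remodelling complex, with 2 peaks in each list, the stronger at a -log10 q of 24.9 (wt) and 23.2 (ΔIkE120). The start of *Uqcr11*, which encodes a subunit of respiratory complex III, carried a peak at 8.42 in wt and 5.62 in ΔIkE120.

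Within the *Tcf3* body itself, 1 peak was called in each list, the one at the start. Upstream of the gene, wt peaks at chr10:80444727-80444941 (-log10 q of 4.03) and chr10:80452250-80452514 (2.38) had no overlap in ΔIkE120. The longest of the upstream peaks began 8.95 kb from the start in both lists and measured 384 bp in wt and 737 bp in ΔIkE120. The wt peaks missing from ΔIkE120 were thus shorter than the median wt peak, and the shared upstream peak was the longer in ΔIkE120.

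*Tcf12* encodes HEB, the partner of the *Tcf3* products in thymocytes, and occupies chr9:71844252-72111893 on the minus strand. Its start peak covered chr9:72110284-72112248 in wt (1965 bp, fold enrichment 3.12, -log10 q 20.0) and chr9:72110286-72112204 in ΔIkE120 (1919 bp, 2.99 and 19.1). It was longer than the strongest start peak of 96.9% of genes with such a peak in wt and of 96.6% in ΔIkE120. Of the 5 members with a start peak, *Tcf12* therefore had the broadest acetylated start in both lists.

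The promoter entries used here (RefSeq, GRCm38.p6) give 3 starts of *Tcf12*, none of them the annotated start at 72111893. Those at 72111819 and 72111201 both lay under the start peak in both lists. The start at 71896096, inside the gene body, had no peak within 1 kb, and the nearest was 6.97 kb away in wt and 6.65 kb in ΔIkE120. Of these 3 starts, only those at the upstream end of *Tcf12* thus had a peak within 1 kb.

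The *Tcf12* window of 307642 bp held 13 peaks over 8431 bases in wt and 11 peaks over 7969 bases in ΔIkE120, a ratio of 0.945. Peaks covered 2.74% of it in wt and 2.59% in ΔIkE120. Away from the start, the longest peak lay deep in the gene, at chr9:71887959-71889126 in wt (1168 bp, -log10 q 2.62) and chr9:71888062-71889450 in ΔIkE120 (1389 bp, 4.04). Next to the start, peaks 10.8 kb and 12.7 kb into the gene in wt recurred in ΔIkE120 at 10.9 kb and 12.9 kb. The start of the pseudogene *Rpl15-ps2*, inside *Tcf12*, had no peak.

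Of the 13 wt peaks, 5 had no overlap in ΔIkE120, the strongest at chr9:71976260-71976613 with a -log10 q of 3.13, followed by chr9:71874404-71874778 with 1.99. In the other direction 3 of the 11 ΔIkE120 peaks had none in wt, the strongest at chr9:71986687-71986952 with 2.60. Across the full lists, an overlap was lacking for 25.6% of peaks in wt and 13.6% in ΔIkE120. Of the peaks found in 1 list only in the E protein windows, 8 of 11 lay in the long body and flank of *Tcf12*. The *Tcf12* window also held 13 of the 27 wt peaks and 11 of the 23 ΔIkE120 peaks of these windows.

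*Tcf4*, the E protein gene that directs plasmacytoid dendritic cell development, spans chr18:69343429-69687967 on the plus strand. Its start peak began 579 bp inside the gene in wt, at chr18:69344008-69344361 (354 bp), with a fold enrichment of 4.52 and a -log10 q of 14.5. In ΔIkE120 it began 565 bp inside, at chr18:69343994-69344383 (390 bp), with 4.12 and 12.4. The peak was short, since 3.35% of genes with a start peak had a shorter one in wt and 4.35% in ΔIkE120, while 60.7% and 47.2% had one with a lower -log10 q.

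On the upstream side of *Tcf4*, the nearest peak lay 62.1 kb away in wt and 62.2 kb in ΔIkE120. The window of 384539 bp held 6 peaks over 3457 bases in wt and 6 peaks over 3792 bases in ΔIkE120, a ratio of 1.10 (1.65 without the peaks under each list's median -log10 q). Peaks covered 0.899% of it in wt and 0.986% in ΔIkE120, both under the medians of all genes. All of the peaks lay within the gene body, none in the flanks.

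The peaks of *Tcf4* fell into a pair at its upstream end and a set in the latter part of the gene, from 204 kb after the start on. There, wt peaks at chr18:69592425-69592902 (-log10 q 2.64) and chr18:69593144-69593993 (6.15) were matched by 1 ΔIkE120 peak at chr18:69592498-69593856 (1359 bp, 7.27). A ΔIkE120 peak at chr18:69574974-69575341 (1.63) had no wt overlap, and every wt peak of the window had one in ΔIkE120. The peaks from 69592425 to 69593993 thus lay over the same stretch in both genotypes and differed in form.

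**Figure D2:**
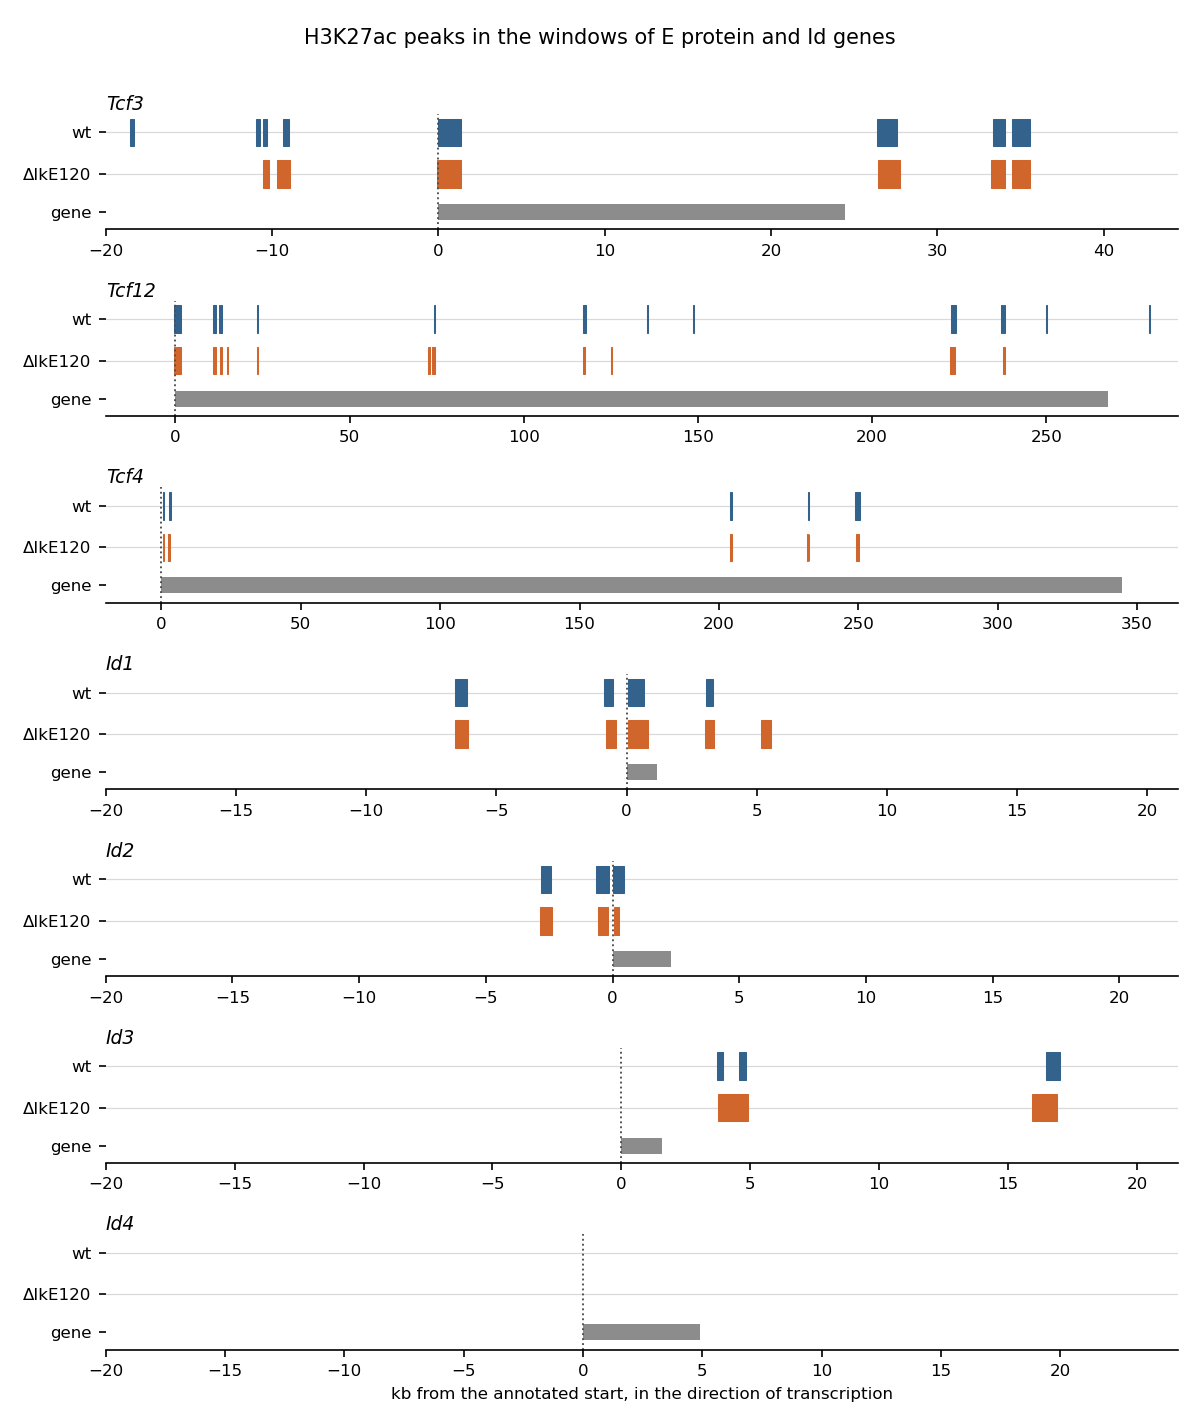
Peaks over each gene body and 20 kb on either side, in kb from the annotated start along the direction of transcription, each gene on its own scale, with wt peaks in blue, ΔIkE120 peaks in orange and the gene body in grey (a thin outline keeps short peaks visible). Tcf12 carries 13 wt and 11 ΔIkE120 peaks along its body and flank, Tcf4 6 in each list, and Id4 none.

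*Id1*, a target of bone morphogenetic protein signalling, lies at chr2:152736251-152737410 on the plus strand. In wt, a peak of 327 bp ended 527 bp upstream of the start (-log10 q of 2.92) and a peak of 603 bp began 53 bp inside the gene (6.94). In ΔIkE120, the upstream peak of 369 bp ended 418 bp before the start (2.95) and the inner peak of 802 bp began 38 bp after it (7.39). Of genes with a start peak, 18.4% had a lower -log10 q than the inner peak in wt and 20.2% in ΔIkE120. A shorter one was found at 14.2% and 28.6%, so the *Id1* start stood in the lower part of both lists. The gap around the start measured 579 bp in wt and 455 bp in ΔIkE120, and was thus narrower in ΔIkE120. Over all genes whose start lay in such a gap, the median gap was 270 bp in wt (1019 genes) and 266 bp in ΔIkE120 (963 genes).

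The *Id1* window held 4 peaks over 1678 bases in wt and 5 peaks over 2414 bases in ΔIkE120, a ratio of 1.44. Of 10561 windows with a mean of at least 1000 covered bases in the lists, 135 had a higher ratio. Without the peaks under each list's median -log10 q, the ratio of *Id1* was 0.737, on the other side of 1, from a mean of 945 covered bases, below that minimum. All 4 wt peaks had an overlapping ΔIkE120 peak, and each of these was the longer. A further ΔIkE120 peak at chr2:152741433-152741808, with a -log10 q of 1.27, had none in wt. The starts of *Cox4i2*, a subunit gene of cytochrome c oxidase, and of the pseudogene *Gm14162* also lie in this window and had no peak in either list.

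*Id2*, needed for innate lymphoid and natural killer cells, lies at chr12:25093799-25096092 on the minus strand. In wt, a peak of 431 bp (-log10 q 5.03) began 35 bp inside the gene and a peak of 507 bp (7.0) ended 145 bp upstream of the start. In ΔIkE120, these peaks measured 229 bp (4.79) and 371 bp (7.20), at 41 bp and 197 bp. The gap around the start was 179 bp in wt and 237 bp in ΔIkE120, wider in ΔIkE120 where that of *Id1* was narrower. How precisely the edges of these peaks were placed was not tested.

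A further *Id2* peak lay upstream, at chr12:25098531-25098921 in wt (391 bp, fold enrichment 3.25, -log10 q 6.76) and chr12:25098474-25098936 in ΔIkE120 (463 bp, 4.00 and 11.2). This was the strongest peak of the 4 Id windows in ΔIkE120. In all, the window held 3 peaks in each list, which covered 1329 wt bases against 1063 ΔIkE120 bases, and the ratio was 0.800 (0.531 over the gene body alone, from a mean of 330 covered bases, below the minimum of 1000). Each of the 3 wt peaks had its counterpart, so the lower ratio came from shorter peaks at the start and not from a missing one.

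*Id3*, which is raised by pre-T cell receptor signals through Egr factors, lies at chr4:136143822-136145392 on the plus strand. It had no peak within 1 kb of its start and none in its body. The nearest peak began 3.71 kb downstream of the start in wt and 3.73 kb in ΔIkE120, a distance exceeded by 49.5% of all genes in wt and 50.4% in ΔIkE120. By the place of its nearest peak, *Id3* thus stood in the middle of all genes. Upstream, a wt peak ended 20.8 kb before the start, just outside the window, and the nearest ΔIkE120 peak 42.9 kb before it.

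The wt peaks of the *Id3* window measured 247 bp (chr4:136147532-136147778, -log10 q of 6.02), 305 bp (chr4:136148370-136148674, 4.11) and 550 bp (chr4:136160287-136160836, 4.12). The ΔIkE120 peaks measured 1163 bp (chr4:136147555-136148717, 4.77) and 987 bp (chr4:136159734-136160720, 3.19). These peaks covered 1102 wt bases against 2150 ΔIkE120 bases, which gives a ratio of 1.95, and 12 of the 10561 windows had a higher one. In ΔIkE120, 1 peak bridged a pair of wt peaks and the other overlapped the third and reached closer to the gene. Of these ΔIkE120 peaks, 45.5% and 44.0% of the bases lay under wt peaks, so that neither met an overlap of 50%. When peaks within 1 kb of each other were joined before bases were counted, the ratio was 1.27, and with flanks of 50 kb it was 1.23.

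*Id4*, which acts in the nervous system and the mammary gland, lies at chr13:48261116-48266028 on the plus strand. Its window held no peak in either list, a state of 31.7% of all windows in wt and 33.2% in ΔIkE120, and the starts of the long noncoding RNA genes *A330033J07Rik* and *A330048O09Rik* within it had none. The nearest peak lay 251.7 kb downstream in wt and 251.8 kb in ΔIkE120. The stretch without peaks around its start measured 1.24 Mb in both lists, and 14.7% of the genes in wt and 14.9% in ΔIkE120 sat in a wider stretch.

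Of the 18397 genes, *Id4* was the 1 gene whose start lay in that stretch. On its left it was bounded by a peak 26.0 kb (wt) or 25.8 kb (ΔIkE120) from *Rnf144b*, which encodes a ubiquitin ligase, and on its right by a peak inside *Zfp169*, a zinc finger gene. Peaks covered 4.08% of the *Id1* window, 3.14% of the *Id2* window and 2.65% of the *Id3* window in wt, and 5.86%, 2.51% and 5.17% in ΔIkE120, beside 0% for *Id4* in both. The order of *Id1*, *Id2* and *Id3* depended on the setting in both lists. In wt, *Id2* was above *Id1* with flanks of 5 kb (10.8% against 10.7%) and with peaks of a -log10 q of at least 3 (3.14% against 2.64%), and *Id3* was above *Id2* with flanks of 50 kb (3.81% against 3.73%) and with joined peaks (4.07% against 3.57%). In ΔIkE120, *Id3* was above *Id1* with peaks of a -log10 q of at least 3 (5.17% against 2.80%). Without the peaks under each list's median -log10 q, *Id1* was below *Id2* in both lists, at 2.64% against 3.14% in wt and 1.95% against 2.51% in ΔIkE120, where *Id3* (2.80%) was above both.

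**Figure D3:**
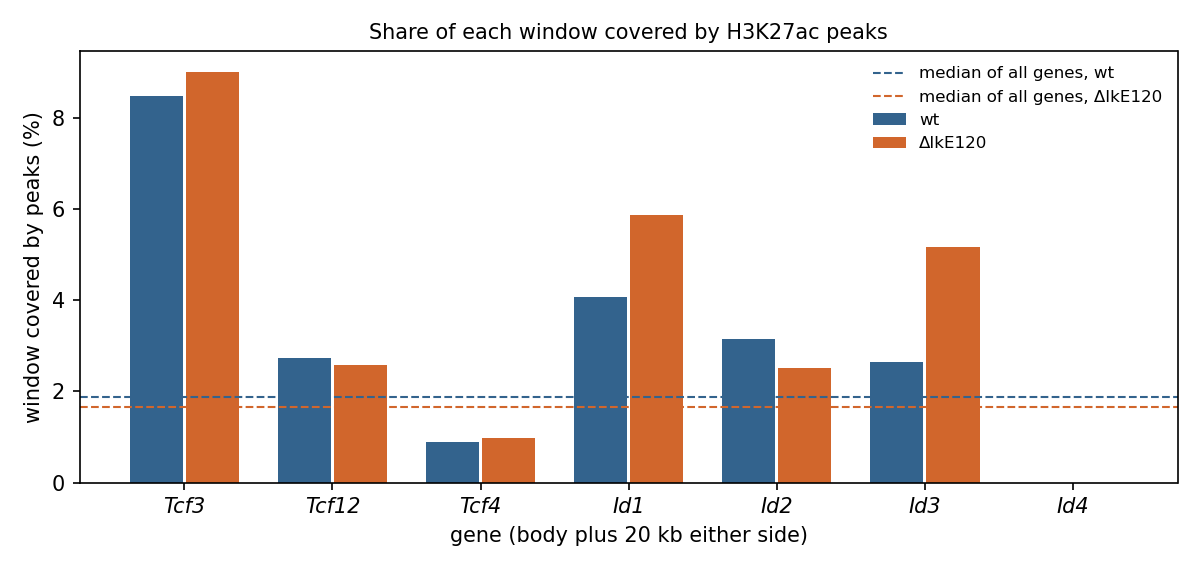
Percentage of each gene's window (body plus 20 kb on either side) covered by H3K27ac peaks, as 1 bar for the wt library (blue) and 1 for the ΔIkE120 library (orange), with dashed lines at the medians of all genes, 1.87% in wt and 1.67% in ΔIkE120. Tcf3 has the highest bars (8.48% and 9.01%), but 3.84% and 3.95%, below the bars of Id1, without the peaks at the starts of Mbd3 and Uqcr11, Tcf4 lies under the medians and Id4 is at 0%.

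Over the 7 windows together, 37 wt peaks covered 21462 bases and 33 ΔIkE120 peaks covered 23194 bases, a ratio of 1.08. The E protein windows gave 17353 and 17567 bases (ratio 1.01), and the Id windows 4109 and 5627 bases (ratio 1.37). This order of the families depended on the setting, since without the peaks under each list's median -log10 q the ratio was 1.15 for the E protein and 0.942 for the Id windows. For the Id windows it was 1.02 with flanks of 50 kb, 0.997 over the gene bodies alone and 1.16 with joined peaks. Over all 10561 windows with enough covered bases the median ratio was 0.937, with quartiles of 0.830 and 1.03. *Tcf3*, *Tcf4*, *Id1* and *Id3* lay above the upper quartile, *Tcf12* between the quartiles and *Id2* below the lower one. These places depended on the setting too, though the quartiles were computed in the main setting only. *Tcf3* gave 1.030 without peaks at the starts of other genes, under the upper quartile of 1.031, and 0.953 with joined peaks. *Id2* gave 0.862 with joined peaks. *Tcf12* gave 1.07 with equally long lists and 1.09 with peaks of a -log10 q of at least 3.

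None of the 6 member windows with enough covered bases passed a 2-fold difference. Covered bases in ΔIkE120 were at most 0.5 of wt in 2.05% of all windows and at least 2 times wt in 0.0947%. The ratio of *Id3*, at 1.95, came closest. With flanks of 5 kb it was 2.11, but from 552 wt and 1163 ΔIkE120 bases, whose mean is below the minimum of 1000, so it was not counted as past 2-fold. With 1 library per genotype, the spread of such a ratio between libraries of 1 genotype was not tested.

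Of the 37 wt peaks, 7 (18.9%) had no overlap in ΔIkE120, beside 25.6% of all wt peaks. All 7 were in the *Tcf3* and *Tcf12* windows, with a -log10 q of 1.36 to 4.03, under the wt median of all peaks. Of the 33 ΔIkE120 peaks, 5 (15.2%) had none in wt, beside 13.6% of all ΔIkE120 peaks, with a -log10 q of 1.27 to 2.60. These 5 lay in the windows of *Tcf12*, *Tcf4* and *Id1*, so no peak at a member's start and no peak above the median -log10 q of its own list was found in 1 genotype only.

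The genes with the most similar windows, by covered bases in both lists and window length, were *Kif2c* for *Tcf3* (distance 0.0687 on the log2 scale), *Sgms1* for *Tcf12* (0.107), *Cadm1* for *Tcf4* (0.155), *Adrm1* for *Id1* (0.137), *Ppdpf* for *Id2* (0.0360) and *Asphd1* for *Id3* (0.208). Each likeness rests on 2 libraries. The window of *Asphd1* held 1068 bases in wt and 1883 in ΔIkE120, near the 1102 and 2150 of *Id3*.

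Cofactors of E proteins and genes of the Tal/Lmo complex had a start peak in 4 of 12 cases in both lists (33.3%), below the share of all genes (45.9% in wt and 45.2% in ΔIkE120). These were the histone acetyltransferase genes *Ep300* (-log10 q 28.9 for wt and 29.0 for ΔIkE120) and *Crebbp* (10.1 and 11.5), the corepressor gene *Cbfa2t2* (26.9 and 24.7) and the LIM-only gene *Lmo4* (12.3 and 11.4). Of the 12 tissue-restricted bHLH genes that pair with E proteins in other tissues, such as muscle, nerve or pancreas, 0 had a start peak in either list, against the same shares. The 12 bHLH genes thus had no called start peak, while 4 of the 12 cofactor genes had one, both acetyltransferase genes among them.

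Among 12 genes known as E protein targets in lymphoid precursors, 9 had a start peak in both lists (75%), above the shares of all genes, 45.9% and 45.2%. The highest -log10 q in wt were at the chemokine receptor gene *Cxcr4* (30.4 in wt and 23.4 in ΔIkE120), the forkhead gene *Foxo1* (11.3 and 9.10), the receptor gene *Notch1* (8.47 and 8.61) and the repressor gene *Gfi1* (7.34 and 6.99). Of the 11 windows with enough covered bases, 1 was at or below 0.5, beside 2.05% of all windows. It was that of the cell cycle inhibitor gene *Cdkn1a*, where 1759 wt bases stood against 872 ΔIkE120 bases (ratio 0.496). This gene is named here after its values were seen. The median ratio of these windows was 0.947, near that of all genes.

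Signalling genes upstream of Id genes also had a start peak in 9 of 12 cases in both lists, against the same 45.9% and 45.2%. The highest -log10 q in wt were at the receptor genes *Tgfbr1* (26.9 in wt and 23.6 in ΔIkE120) and *Tgfbr2* (18.7 and 17.8) and at the signal transducer genes *Smad5* (22.1 and 20.5) and *Smad1* (14.4 and 13.3). Their windows had a median ratio of 0.962 and none passed a 2-fold difference. In the lists of targets, signalling genes, cofactors and bHLH partners, 0 genes had a start peak in 1 genotype only.

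Promoter sequences (RefSeq, GRCm38.p6; 250 bp before to 50 bp after a start) were matched for 5 of the 7 genes, with 7 entries, and *Id1* and *Tcf4* had no entry. They were searched on both strands for the E box CANNTG and for its forms CAGCTG and CAGGTG, which are part of it. The other motifs searched were GGAA, the core of ETS sites, TGTGGT, a Runx site, and CG. Of 21263 promoters of protein-coding genes, 69.0% held CANNTG, 15.6% CAGCTG, 19.7% CAGGTG, 95.7% GGAA, 15.0% TGTGGT and 95.4% CG. A match describes the letters only.

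CAGCTG was found in the *Tcf12* entry at 72111819, at -240 from the start, and in the *Id2* entry, at -196. CAGGTG and TGTGGT were in none of the 7 entries, GGAA was in each of them, and *Id3* and *Id4* held no CANNTG. *Tcf3* held 1 CANNTG, at -54 from a start at 80433635, under its start peak in both lists. The CAGCTG of *Tcf12* also lay under the start peak in both lists. That of *Id2*, at chr12:25096283-25096288, lay under the upstream peak in wt and just outside it in ΔIkE120, whose peak began at the next base. With 1 library per genotype, the precision of such a peak edge was not tested. The bases upstream of the genes are shown for *Tcf12* and *Id2* and for the Id promoters without a peak. CANNTG is in capitals, and all read 5′ to 3′ on the strand of the gene.
Tcf12, chr9:72111894-72112069, minus strand: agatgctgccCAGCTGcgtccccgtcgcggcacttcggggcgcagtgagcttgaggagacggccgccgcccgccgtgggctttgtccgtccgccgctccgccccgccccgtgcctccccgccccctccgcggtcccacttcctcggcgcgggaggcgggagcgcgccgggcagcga
Id2, chr12:25096093-25096342, minus strand: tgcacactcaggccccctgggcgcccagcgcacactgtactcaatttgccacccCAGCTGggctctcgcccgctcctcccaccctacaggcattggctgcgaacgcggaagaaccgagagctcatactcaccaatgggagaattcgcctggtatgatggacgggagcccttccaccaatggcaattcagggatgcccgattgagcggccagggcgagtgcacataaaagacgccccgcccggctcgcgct
Id3, chr4:136143572-136143821, plus strand: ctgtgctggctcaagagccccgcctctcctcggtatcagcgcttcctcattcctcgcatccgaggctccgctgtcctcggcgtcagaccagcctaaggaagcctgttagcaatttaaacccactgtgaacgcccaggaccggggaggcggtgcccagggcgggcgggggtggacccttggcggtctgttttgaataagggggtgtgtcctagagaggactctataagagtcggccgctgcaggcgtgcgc
Id4, chr13:48260866-48261115, plus strand: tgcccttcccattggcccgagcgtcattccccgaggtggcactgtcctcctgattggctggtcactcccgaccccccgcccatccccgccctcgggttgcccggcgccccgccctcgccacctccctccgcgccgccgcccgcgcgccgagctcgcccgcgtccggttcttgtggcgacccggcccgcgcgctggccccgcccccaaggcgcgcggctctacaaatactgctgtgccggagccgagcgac

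The 250 bases upstream of *Id4* held 35 CG, those of *Id2* and *Id3* 18 each, and the 176 bases upstream of *Tcf12* 28. Over the whole entries, *Id4* held 39 CG, more than 94.2% of promoters, whose median was 13, and its G and C content was 73.3%. *Id3* held 19 and *Id2* 21 CG. Of the 3 Id promoters searched, the richest in CG was thus that of *Id4*, the gene without a peak in its window. Among the *Tcf12* entries, those under the start peak held 41 and 45 CG and the one at 71896096, without a peak, held 0.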

How the data were processed

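H3K27ac ChIP-seq of wt and ΔIkE120 P5424 cells was analysed (1 library each), and the 6 4C libraries of the series, which cover chromosome 11, were not used here. The submitters' processing notes name Bowtie2 2.3.4.3, Bowtie 1.0.0, deepTools 3.2.1 and MACS2 2.1.1 without roles, and the caller's settings are not given in the sources used here. The authors deposited 1 broad peak list per library on GRCm38, with a score, a fold enrichment (ratio over background) and the -log10 p-value and -log10 q-value of each peak. The deposited score follows -log10 q. Signal heights were not analysed here.

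Genes came from RefSeq (GRCm38.p6) and their strand from GENCODE M1 by symbol, for 18397 of 21900 protein-coding genes (84.0%). Gene coordinates of GENCODE were not used. Peaks overlapped if they shared at least 1 base. A start peak lay within 1 kb of the annotated start, and where several did, the 1 with the highest -log10 q gave the values. Window ratios were read where the mean covered bases of both lists reached 1000 in the main setting. Under other settings 5 ratios from fewer bases are included as descriptions. Interval functions were checked on simulated data. Alternatives were stricter or equally long peak lists, other start windows, transcript starts and flanks, joined peaks, a larger overlap and, chosen after seeing the data, leaving out peaks at the starts of other genes. Python 3.11.15, numpy 2.4.6, pandas 2.3.3 and matplotlib 3.10.9 were used.

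Named were all members, genes with a start in their windows, the gene with the nearest window (Euclidean distance in log2 of covered bases plus 1 and of window length), up to 4 genes per list by -log10 q in wt and genes with a start peak in 1 list only. Single peaks were named at the start, as the longest elsewhere, and where found in 1 list only (up to 6, otherwise the 3 with the highest -log10 q). The lists were cofactors of E proteins and the Tal/Lmo complex, tissue-restricted bHLH partners, E protein targets, signalling genes upstream of Id genes, and markers of T cell precursors, B cells, myeloid cells, fibroblasts and pluripotent cells. Members and lists were chosen with earlier results of these data known. The stretch upstream of *Ikzf1* and the IkE120 interval in it, whose position is that given in the study's methods, were chosen after the data were seen.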

Additional observations from a re-analysis of the deposited data

How the results depend on the processing

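Counts and ratios were called the same under another setting when they stayed within 1.5 times, since there are no replicates. Start peaks were found at 4 or 5 members in both lists under the 6 settings tried, and *Tcf4* lost its own with a start window of 500 bp. The ratio over the 7 windows stayed between 0.992 and 1.15 in 8 settings, including 1 chosen after seeing the data that left out peaks at the starts of other genes. Among single windows, 42 values stayed within 1.5 times and 5 did not. Of these 47, 5 came from a mean of under 1000 covered bases, below the minimum of the main setting, and 2 of them were among those that did not stay. When the weaker part of each list, under its median -log10 q, was left out, *Tcf4* gave 1.65 and *Id1* 0.737 (below that minimum), under 1 where the main ratio was above it. Without flanks *Id2* gave 0.531 (also below the minimum). *Id3* gave 1.23 with flanks of 50 kb and 1.27 with peaks within 1 kb joined, and 2.11 with flanks of 5 kb, again below the minimum. Peaks without an overlap numbered 3 of 16 (18.8%) in wt and 1 of 14 (7.14%) in ΔIkE120 without that weaker part, 4 of 28 (14.3%) in wt with flanks of 5 kb, and 8 of 33 in ΔIkE120 when 50% of a peak had to overlap. The main setting gave 7 of 37 (18.9%) in wt and 5 of 33 in ΔIkE120. The 3 and the 1 arose because both lists were cut, since against the whole other list 0 of the 16 wt peaks and 0 of the 14 ΔIkE120 peaks lacked an overlap. The cause of the other shifts was not tested. Depth is unknown, and the signal under peaks called in 1 list only was not analysed here. Without replicates, differences between genotypes and between libraries cannot be told apart.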
